A study of Mus musculus with 30 samples.

Results

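The SREBP pathway genes described here are Srebf1 and Srebf2, which encode the transcription factors SREBP-1 and SREBP-2, and the 5 genes Scap, Insig1, Insig2, Mbtps1 and Mbtps2, which encode the proteins that hold, escort and cut them. They are 7 of the 36047 mouse genes whose transcripts are listed in all 30 libraries, and they were chosen by their role in the pathway, with earlier results of these data known. SREBPs are made as precursors in the membrane of the endoplasmic reticulum, bound to the escort protein SCAP, and when sterols are plentiful SCAP is held there by INSIG1 or INSIG2. When sterols fall, SCAP moves the precursor to the Golgi in COPII vesicles, where the site-1 protease (Mbtps1) and then the site-2 protease (Mbtps2) release the part that enters the nucleus and drives genes of cholesterol and fatty acid synthesis. Insig1 is itself a known target of SREBPs, which makes its transcript a usual readout of the pathway beside the synthesis enzymes.

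The cells were NIH3T3-CG, a derivative of the mouse embryonic fibroblast line NIH3T3 whose suffix the labels do not explain, and bulk mRNA was sequenced in 3 libraries of each of 10 groups. In transfected cells, a plasmid for Srebf2 was set against its own control plasmid, plasmids for Prrx1 and Snai1 shared another control group, and plasmids for Egr1 and Jun shared another. In the remaining experiment all cells carried Prrx1 by transduction, and cells given doxycycline were set against cells that were not. The series title names transcription factor fluctuations and variability in the Hedgehog response as its subject, and the labels name no Hedgehog ligand, dose or time for these cultures. All groups are 1 cell line in culture, the controls of the transduction experiment carry the Prrx1 construct too, and the labels do not say whether the 3 libraries of a group came from separate cultures. The p-values below therefore speak of variation among these libraries only, and that variation may be technical.

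Total estimated counts per library ran from 7996355 to 37068611, with the 6 transduction libraries between 7996355 and 17129632. All 10 fibroblast markers were above 1 TPM in all 30 libraries, the lowest value being 1.01 TPM for Dcn. Some markers of other cell types were above 1 TPM too, among them Cd68 in all 30 libraries and Krt8 in 18. Krt18 was so in 5 libraries (up to 125 TPM), Epcam in 4 (up to 30.9) and Ttr in 3 (up to 52.7). The epithelial markers Cdh1 and Cldn4 were so in 0. The delivered gene was higher in each group that received it, by 4.20-fold for Srebf2, 27.5-fold for transfected Prrx1, 123-fold for Snai1, 9.53-fold for Egr1, 22.1-fold for Jun and 3.86-fold for Prrx1 with doxycycline. Replicate 1 of the Prrx1 and Snai1 control group stood apart from its 2 partners, and leaving it out moved the number of genes called to 2639 for Prrx1 (393 with it) and 3062 for Snai1 (212 with it). In bulk RNA, fewer cells of a type and less RNA per cell cannot be told apart, and neither can the share of cells that took up a plasmid.

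The stretches upstream of Srebf2, Insig1 and Mbtps2 are shown because these are the members whose transcripts passed a test below. Upstream windows from RefSeq on GRCm38.p6 were found for 7 of 7 members, 12 windows in all. Each printed stretch ends at the base before the gene start in GENCODE M21 and runs 5′ to 3′ on the gene's strand. Capitals mark the sterol regulatory element core ATCACCCC, the CCAAT box and the E-box CACGTG, on either strand, so that ATTGG is a CCAAT box read from the other strand.
Srebf2, chr15:82147019-82147180, plus strand: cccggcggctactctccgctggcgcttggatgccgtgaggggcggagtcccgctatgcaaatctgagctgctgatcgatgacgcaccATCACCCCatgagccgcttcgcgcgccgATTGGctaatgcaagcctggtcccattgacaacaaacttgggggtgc
Insig1, chr5:28071162-28071362, plus strand: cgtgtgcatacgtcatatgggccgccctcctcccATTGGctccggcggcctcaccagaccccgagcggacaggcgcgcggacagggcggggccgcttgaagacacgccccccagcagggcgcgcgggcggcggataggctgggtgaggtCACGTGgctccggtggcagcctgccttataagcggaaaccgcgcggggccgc
Mbtps2, chrX:157598716-157598965, minus strand: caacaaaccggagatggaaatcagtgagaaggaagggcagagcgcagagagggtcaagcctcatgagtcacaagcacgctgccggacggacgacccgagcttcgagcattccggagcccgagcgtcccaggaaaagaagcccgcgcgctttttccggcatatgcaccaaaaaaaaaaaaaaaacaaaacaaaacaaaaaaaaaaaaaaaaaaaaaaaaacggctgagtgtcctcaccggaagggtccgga
The Srebf2 stretch held ATCACCCC and an inverted CCAAT box a short way downstream of it, and it was the 1 member window of 12 with ATCACCCC in the 250 bases upstream of the RefSeq start. Of 32851 such windows of all genes, 0.654% held ATCACCCC, 33.8% CCAAT and 6.02% CACGTG. The CCAAT box was in 5 of the 12 member windows, and CACGTG, which reads the same on both strands, was in 2, those of Insig1 and Scap. A match or its absence describes the letters of these windows and nothing of binding.

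Levels are given as TPM, which adjusts for transcript length and so can be set side by side between genes, rescaled to a sum of 1000000 over all targets other than the added GFP and mScarlet sequences. Srebf2 was the most abundant member in the Srebf2-transfected cells, at 905 ± 48.0 TPM (SD, n = 3). In the other 7 transfection groups it lay between 186 and 208 TPM, from 208 ± 3.31 in Jun-transfected cells and 199 ± 5.75 in the Srebf2 control cells down to 186 ± 9.20 in the Jun and Egr1 control cells. It was lowest in the transduced cells, at 125 ± 6.63 TPM with doxycycline and 116 ± 18.3 TPM without. The libraries of neighbouring groups in this order overlapped, except at the steps below the Srebf2-transfected cells, below the Jun-transfected cells and between the transfection and transduction groups.

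Insig1 was the other member with a wide range, and its highest group mean was 6.42 times its lowest. It averaged 374 ± 60.6 TPM in Egr1-transfected cells, 364 ± 3.42 in Jun-transfected cells and 334 ± 33.8 in their controls. Prrx1-transfected cells had 299 ± 22.2 TPM, Snai1-transfected cells 292 ± 13.9 and their controls 286 ± 19.8. Srebf2-transfected cells had 262 ± 4.12 TPM and their controls 255 ± 0.301. Transduced cells had 81.9 ± 2.29 TPM with doxycycline and 58.3 ± 10.9 without, so that all 6 transduction libraries lay below all 24 transfection libraries. Insig2, the second INSIG gene, kept a narrower range of group means, from 38.3 to 64.3 TPM. The ratio of Insig1 to Insig2 within a library was therefore 1.39 to 2.33 in the 6 transduction libraries and 3.47 to 10.1 in the 24 transfection libraries.

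Scap followed the same split on a smaller scale, with group means of 46.4 to 56.3 TPM in transfected cells, 28.5 ± 7.87 in transduced cells with doxycycline and 18.5 ± 2.28 in transduced cells without. Srebf1 had group means of 26.2 to 45.2 TPM. In transduced cells it had 26.2 ± 7.61 TPM with doxycycline and 36.0 ± 27.0 without. The libraries without doxycycline had 19.8, 67.2 and 21.1 TPM, and the 67.2 TPM was the highest value of all 30 libraries. The full-length coding transcript of Srebf1, Srebf1-201 with 1134 codons, was at 4.89 to 8.59 TPM in the transduction libraries. That transcript averaged 19.2 TPM in Srebf2-transfected cells and 21.6 TPM in their controls, and 3.47% of its 31-base words were its own, so its level rests on how reads were divided between Srebf1 transcripts. The protease genes varied least, with group means of 70.2 to 86.4 TPM for Mbtps1 and 23.1 to 29.1 TPM for Mbtps2. Delivery, experiment and depth cannot be told apart across these groups, so levels of different experiments are a description and have no test.

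**Figure D1:**
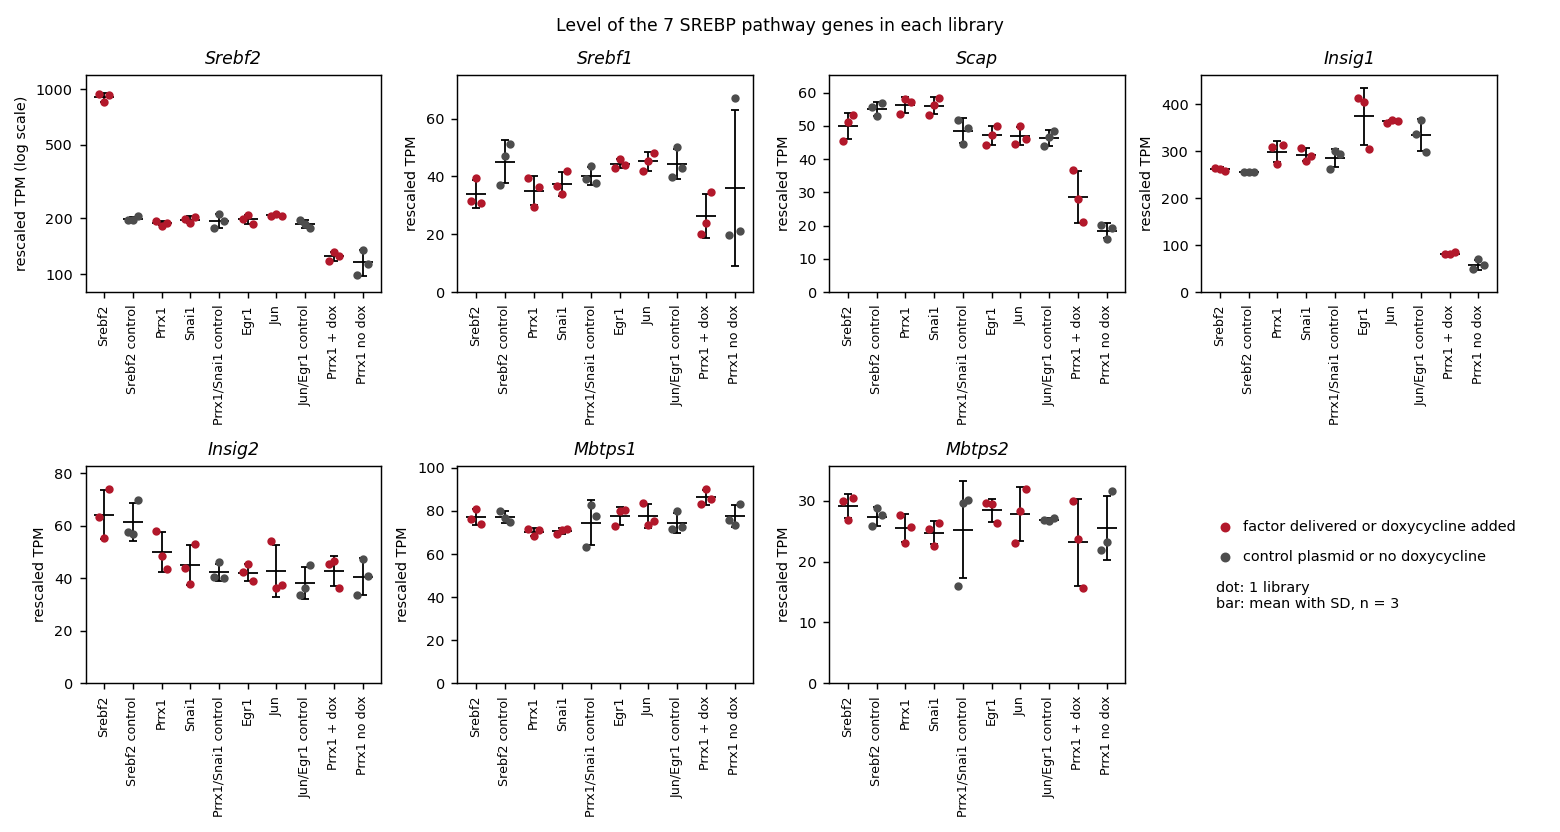
Rescaled TPM of each of the 7 genes by group, with each dot 1 library and bars the mean with SD (n = 3); the Srebf2 axis is a log scale. Srebf2 stands at 905 TPM in the Srebf2-transfected cells, and Insig1 and Scap are lowest in both groups of Prrx1-transduced cells.

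In Srebf2-transfected cells, 2 of the 7 members passed the test against the control plasmid, Srebf2 itself and Mbtps2, both higher, where 17.3% of 12730 tested genes passed (8.63% higher, 8.68% lower). Srebf2 is the gene on the plasmid, so its call follows from the delivery. Mbtps2 was the only call among the other members, a share close to that of all tested genes. The test was edgeR's quasi-likelihood test on estimated counts with Benjamini-Hochberg adjustment over all tested genes, at an adjusted p below 0.05, and the values per library are normalised CPM, the counts scaled for library size. All 7 members passed the filter on low counts in every experiment. The median log2 fold change of the 7 was 0.04, against 0.01 over all tested genes.

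Srebf2, the gene carried by the plasmid, had 2467, 2313 and 2615 CPM in the Srebf2-transfected libraries, against 569.9, 596 and 596 CPM in the control libraries. The groups lay far apart, with a log2 fold change of 2.07 (SE 0.06, adjusted p 5.47e-14). The gene lies on the plus strand at chr15:82147181-82205379 (mm10, GENCODE M21), where 7 transcripts are annotated. The full-length Srebf2-201, with 1130 codons, had 645, 611 and 679 TPM in Srebf2-transfected cells, against 154, 161 and 164 TPM in control cells. Srebf2-203, with 1096 codons, had 65.2, 48.1 and 58.5 TPM in Srebf2-transfected cells and was close to 1 TPM in control cells, at 0.958, 1.198 and 0.847. The short coding Srebf2-202, of 748 bases, had 172, 138 and 121 TPM in Srebf2-transfected cells, against 14.5, 7.63 and 16.5 TPM in control cells. The retained-intron Srebf2-205 was also higher in each Srebf2-transfected library, at 50.9, 50.1 and 60.8 TPM, against 23.6, 20.98 and 20.2 TPM in control cells. Srebf2-202 and Srebf2-203 share nearly all of their sequence with other Srebf2 transcripts, and 1.67% and 1.40% of their 31-base words were their own, so the levels of both rest on how reads were divided. Reads of the plasmid and of the chromosomal gene cannot be told apart in these tables.

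**Figure D2:**
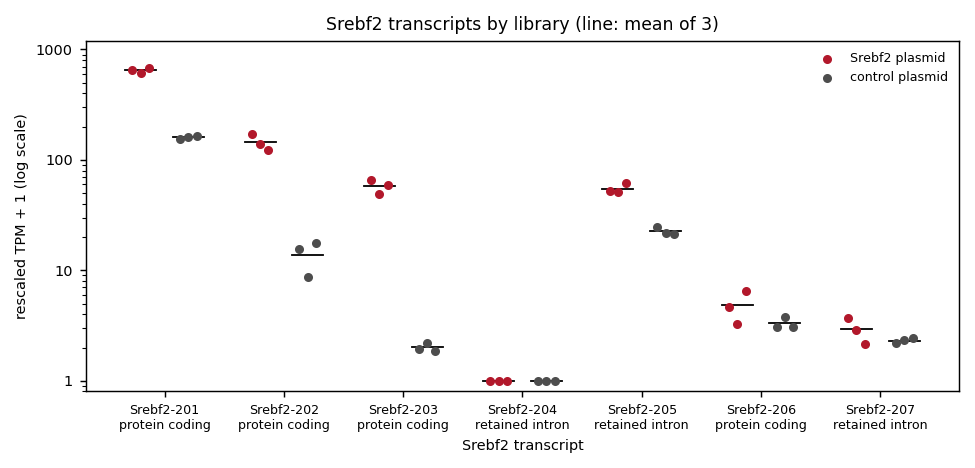
Rescaled TPM plus 1, on a log scale, of each annotated Srebf2 transcript in the 3 Srebf2-transfected and the 3 control libraries; lines are means of 3. Coding transcripts 201, 202 and 203 and the retained intron 205 are higher in every Srebf2-transfected library, and Srebf2-204 is at 0 in all 6.

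Srebf1, which encodes the SREBP best known for fatty acid synthesis genes, had 67.5, 67.7 and 65.0 CPM in Srebf2-transfected cells, against 72.01, 73.5 and 73.5 CPM in control cells. These groups did not overlap, but the change of -0.13 (95% interval -0.24 to -0.02) missed the threshold, with an adjusted p of 0.103. Groups without overlap were found for 4 of the 7 members, Srebf1, Srebf2, Mbtps1 and Mbtps2, and for 35.5% of all tested genes. Srebf2 was among them by its delivery. Scap, the escort, had 115, 114 and 124 CPM in Srebf2-transfected cells, against 126, 123 and 123 CPM in control cells, with an interval of -0.18 to 0.04 on the log2 scale.

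Insig1 had 426, 435 and 428 CPM in Srebf2-transfected cells, against 422, 429.8 and 419 CPM in control cells. The groups overlapped, and the log2 fold change of 0.02 had a 95% interval of -0.08 to 0.12, so a change beyond 0.12 in this direction lies outside the interval. Insig2 differed by 0.04 with an interval of -0.16 to 0.23. The anchors thus had small estimated differences beside a 4.20-fold difference in the Srebf2 transcript.

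Of the proteases, Mbtps1 had 196, 201 and 199 CPM in Srebf2-transfected cells, against 188, 192 and 190.1 CPM in control cells, a change of 0.07 with an interval of -0.03 to 0.16. Mbtps2, which makes the second cut within the membrane, had 55.9, 52.0 and 56.7 CPM in Srebf2-transfected cells, against 45.8, 47.0 and 46.6 CPM in control cells. Every Srebf2-transfected library lay above every control library, and the log2 fold change of 0.24 (SE 0.06, interval 0.12 to 0.36) passed with an adjusted p of 0.00999. It passed in all 6 fits that each left out 1 library. The call ended in a fit of all 30 libraries together (0.24, adjusted p 0.144) and with limma on gene TPM (0.12, adjusted p 0.362; 0.08 and 0.550 on rescaled TPM). The coding transcript Mbtps2-201, with 515 codons, had 14.997, 13.3 and 14.8 TPM in Srebf2-transfected cells, against 11.6, 11.3 and 11.7 TPM in control cells. The short Mbtps2-206, of 529 bases, averaged 10.2 TPM in Srebf2-transfected cells and 11.9 TPM in control cells, and it made up 34.9% of the gene's TPM in Srebf2-transfected cells and 43.2% in control cells. Of the 31-base words of the Mbtps2 transcripts, 68.9% occur in no other gene, and most of the others are shared with Yy2. The count of Mbtps2 is uncertain for this reason, but a share of words does not give the share of counts affected. Yy2 had 33, 92 and 86 estimated counts in Srebf2-transfected libraries, against 84, 24 and 62 in control libraries. Mbtps2 had 1030, 1086 and 1197, against 870, 911 and 946. The part of shared words in the Mbtps2 change was not tested. Mbtps2-201 shares 75 of its 4757 words with other genes.

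Beside these results, mitochondrial transcripts held 3.65 to 3.96% of counts in Srebf2-transfected libraries and 2.91 to 3.22% in control libraries, and mScarlet held 0.154 to 0.179% of deposited TPM in Srebf2-transfected libraries and 2.56 to 2.91% in control libraries. Their part in the results was not tested.

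The other pathway genes were taken as 7 lists by role. Of 22 cholesterol synthesis genes, 5 were higher and 3 lower in Srebf2-transfected cells, a share of 36.4% beside 17.3% of all tested genes, with a median log2 fold change of 0.09 against 0.01 over all tested genes. The higher ones included Idi1, the isopentenyl diphosphate isomerase (0.27, adjusted p 0.00836), and Msmo1, a sterol methyl oxidase (0.26, adjusted p 0.00413). The other 3, named after their values were seen, were Dhcr7 (0.21), Hmgcs1 (0.21) and Nsdhl (0.16). The lower ones were Pmvk, the phosphomevalonate kinase (-0.45, adjusted p 0.000583), Tm7sf2, a sterol reductase (-0.37, adjusted p 0.000524), and Mvd (-0.20), the last named after its value was seen. Of the 31-base words of Idi1 and Tm7sf2, 81.2% and 87.2% occur in no other gene.

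Of 18 tested fatty acid and triglyceride synthesis genes, 3 were higher and 0 lower in Srebf2-transfected cells, the elongases Elovl5 (0.32, adjusted p 0.000877) and Elovl6 (0.22, adjusted p 0.00797) and the desaturase Scd1 (0.17, adjusted p 0.0317). That is 16.7% of the list, close to the 17.3% of all tested genes, and the COPII list had the same share. Of 8 uptake and transport genes, 0 passed in edgeR and 0 had an unadjusted p below 0.05. Of 12 COPII genes, the cargo adaptor subunit Sec24b was higher (0.29, adjusted p 0.000760) and Preb, which loads SAR1 with GTP, was lower (-0.19, adjusted p 0.0136). Of 16 genes that turn over SREBPs or INSIGs, only the ubiquitin-conjugating enzyme Ube2g2 passed, and it was lower (-0.32, adjusted p 0.00204). Among 9 other substrates or partners of the site-1 and site-2 proteases, Atf6, a stress sensor released by the same cuts, was higher (0.19, adjusted p 0.0163). Of 4 tested genes of the LXR pathway, Rxrb (-0.33, adjusted p 0.00282) and Nr1h2, the LXR-beta gene (-0.20, adjusted p 0.0314), were lower.

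In Prrx1-transduced cells with doxycycline, Insig1 was the 1 of 7 members to pass, and it was higher, where 6.19% of 13633 tested genes passed (3.45% higher, 2.74% lower). It had 123, 134 and 139 CPM with doxycycline, against 88.9, 106 and 90.8 CPM without. The groups did not overlap, which held for 1 of the 7 members and for 25.4% of tested genes, and the log2 fold change was 0.47 (SE 0.09, interval 0.27 to 0.68, 1.39-fold, adjusted p 0.0110). Its coding transcript Insig1-201 had 71.0, 76.6 and 76.4 TPM with doxycycline, against 44.9, 59.7 and 51.0 TPM without. The call ended without replicate 2 with doxycycline (0.47, adjusted p 0.0769), without replicate 3 with doxycycline (0.43, adjusted p 0.0758) and without replicate 3 of the cells without doxycycline (0.44, adjusted p 0.0587). With limma on TPM the estimate was 0.50 with an adjusted p of 0.204. Doxycycline itself and the higher Prrx1 cannot be told apart in this comparison, since no group had doxycycline without the construct.

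Scap had 54.9, 60.5 and 50.03 CPM with doxycycline, against 50.5, 38.6 and 42.9 CPM without. The groups overlapped, and the log2 fold change of 0.32 (interval 0.05 to 0.59) had an adjusted p of 0.182, which fell below the threshold in the fit of all 30 libraries (0.27, adjusted p 0.0330). Srebf2 had 304, 323 and 342 CPM with doxycycline, against 293, 347 and 302 CPM without, a difference of 0.04 with an interval of -0.15 to 0.23. Srebf1 differed by -0.17 (interval -0.48 to 0.13), Insig2 by -0.09 (-0.31 to 0.12), Mbtps1 by 0.07 (-0.10 to 0.24) and Mbtps2 by -0.13 (-0.37 to 0.11), all with overlapping groups. These values rest on 421 to 846 counts per library for Mbtps2 and 229 to 472 for Srebf1.

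Of 22 cholesterol synthesis genes, 7 were higher with doxycycline and 0 lower, a share of 31.8% beside 6.19% of all tested genes. Their median log2 fold change was 0.24, against -0.01 over all tested genes. The higher ones include Ebp, the sterol isomerase (0.71, adjusted p 0.00441), Sqle, the squalene epoxidase (0.51, adjusted p 0.00277), Msmo1 (0.49, adjusted p 0.0125) and Cyp51, the lanosterol demethylase (0.46, adjusted p 0.00339). All 4 had every library with doxycycline above every library without, which adds little, since they were named as called genes with the largest changes. Groups were apart for 25.4% of all tested genes. Of 18 fatty acid genes, Elovl5 (0.43, adjusted p 0.0116) and Elovl6 (0.39, adjusted p 0.0177) were higher and Elovl1 was lower (-0.48, adjusted p 0.0289). Mylip, which encodes a ubiquitin ligase, was higher (0.77, adjusted p 0.00465, 1 of 9 in its list), as was Abca1, the cholesterol exporter (0.98, adjusted p 0.00227, 1 of 5). Both are known targets of LXR. Creb3l1, another factor cut by the site-1 and site-2 proteases, was lower (-0.97, adjusted p 0.0211, 1 of 8). In edgeR 0 of 16 turnover genes and 0 of 12 COPII genes passed, with 3 of each below an unadjusted p of 0.05. Scap, at an unadjusted p of 0.0247, ranked 1853 of 13633 tested genes by p, so such values were common. Mitochondrial transcripts held 1.74 to 2.22% of counts with doxycycline and 1.198 to 3.34% without, and their part was not tested.

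**Figure D3:**
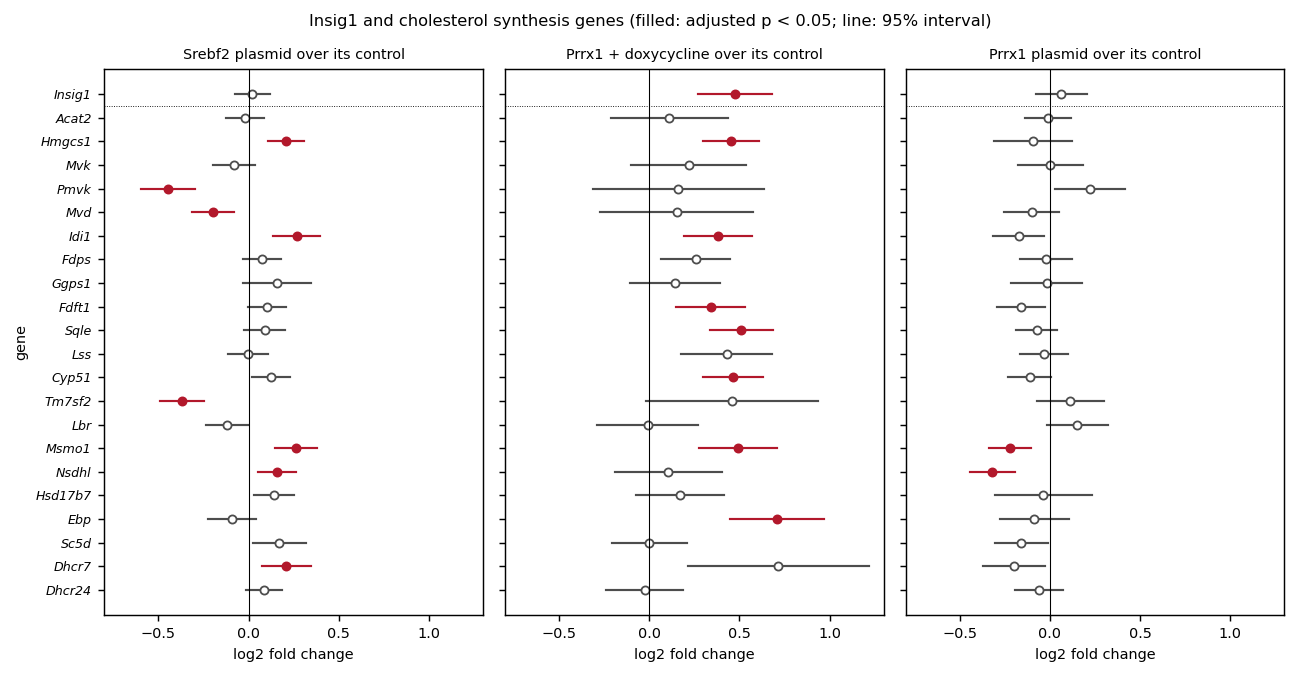
Log2 fold change, with 95% interval, of Insig1 and cholesterol synthesis genes in Srebf2-transfected cells, in Prrx1-transduced cells with doxycycline and in Prrx1-transfected cells, each over its control; filled points have an adjusted p below 0.05. Insig1 and 7 synthesis genes are filled and higher with doxycycline, 5 higher and 3 lower with the Srebf2 plasmid, and 2 lower with the Prrx1 plasmid.

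The Prrx1 and Snai1 plasmids were compared with the same 3 control libraries. None of the 7 members passed in either, by edgeR or DESeq2. In edgeR 3% of 13110 tested genes passed for Prrx1 (1.94% higher, 1.06% lower) and 1.62% for Snai1 (1.14% higher, 0.481% lower). At an unadjusted p below 0.05 in edgeR there were 0 of the 7, a count with no share of all tested genes beside it. Insig1 had 508, 443 and 510.4 CPM in Prrx1-transfected cells and 515, 463 and 487 CPM in Snai1-transfected cells, against 467, 465 and 466 CPM in control cells. The change was 0.06 (interval -0.08 to 0.21) for Prrx1 and 0.07 (interval -0.08 to 0.21) for Snai1. Srebf2 differed by -0.04 (interval -0.16 to 0.07) for Prrx1 and 0.04 (interval -0.08 to 0.16) for Snai1. Mbtps1 was the 1 of 7 members whose groups did not overlap for Prrx1, where 19.1% of tested genes were apart, with 174, 169.9 and 175 CPM in Prrx1-transfected cells, against 179, 182 and 177 CPM in control cells, and its interval was -0.17 to 0.06. For Snai1 the groups of all 7 members overlapped, where 20.5% of tested genes were apart.

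Mbtps2 and Scap in this experiment depended on the control library that stood apart. Mbtps2 had 38.4, 40.6 and 39.5 CPM in Prrx1-transfected cells and 41.1, 37.8 and 38.5 CPM in Snai1-transfected cells, against 35.0, 48.7 and 51.3 CPM in control cells. Control replicate 1 was thus below all 6 transfected libraries and the other 2 controls above them. With all libraries Mbtps2 changed by -0.19 (interval -0.44 to 0.06) for Prrx1 and -0.20 (interval -0.45 to 0.04) for Snai1, and with limma on TPM the estimates turned to 0.05 and 0.03. Without control replicate 1, Mbtps2 was called lower for Prrx1 (-0.34, adjusted p 0.000985) and for Snai1 (-0.35, adjusted p 0.000589). Scap had 129.9, 129 and 138 CPM in Snai1-transfected cells, against 138, 109 and 114 CPM in control cells, and without that library it was called higher for Snai1 (0.25, adjusted p 0.00172, against 0.14 and 0.450 with it).

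Of 90 tested listed genes, 5 passed in Prrx1-transfected cells (5.56%, beside 3% of all tested genes) and 1 in Snai1-transfected cells (1.11%, beside 1.62%). In Prrx1-transfected cells 7 of 22 cholesterol synthesis genes and 7 of 19 fatty acid genes had an unadjusted p below 0.05. No share of all tested genes at that p stands beside these counts, so they are not read as a result. Of the first list 2 of 22 cholesterol synthesis genes passed, both lower, Nsdhl (-0.32, adjusted p 0.0122) and Msmo1 (-0.22, adjusted p 0.0457). Lrp1, an endocytic receptor, was higher for Prrx1 (0.29, adjusted p 0.0490) and for Snai1 (0.33, adjusted p 0.0373). For Prrx1, Fads1 was lower (-0.21, adjusted p 0.0478) and Ube2g2 higher (0.39, adjusted p 0.0306). Mitochondrial transcripts averaged 1.23% of counts in Prrx1-transfected cells and 1.23% in Snai1-transfected cells, against 2.18% in control cells, and their part was not tested.

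The Egr1 and Jun plasmids also shared their 3 controls, and 0 of 7 members passed in either by edgeR or DESeq2. In edgeR 0.323% of 14539 tested genes passed for Egr1 and 0.956% for Jun. The count of members at an unadjusted p below 0.05 was also 0, with no share of all tested genes at that p. Insig1 had 681, 659.7 and 495 CPM in Egr1-transfected cells and 578, 612 and 597 CPM in Jun-transfected cells, against 563, 585 and 493 CPM in control cells. Both overlapped the controls, and the intervals were wide, -0.11 to 0.44 for Egr1 and -0.15 to 0.40 for Jun. Insig2 was the 1 of 7 members apart from its controls for Jun, where 22.7% of tested genes were apart, with 37.3, 37.1 and 38.7 CPM in Jun-transfected cells, against 35.2, 32.2 and 36.3 CPM in control cells (0.13, adjusted p 0.414). Srebf2 had 523, 556 and 555 CPM in Jun-transfected cells, against 531, 497 and 496 CPM in control cells, a change of 0.10 (interval -0.01 to 0.21, adjusted p 0.363).

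The deposited TPM gave another answer for Srebf2 in these groups, with 0.24 for Egr1 (adjusted p 0.0353) and 0.31 for Jun (adjusted p 0.0129) in limma. In that scale the median of all genes was shifted by 0.15 for Egr1 and 0.14 for Jun, and mScarlet held 0.633 to 0.933% of the TPM in Egr1-transfected and 0.923 to 1.10% in Jun-transfected libraries, against 9.12 to 11.9% in control libraries. Its part in these values was not tested beyond the rescaling. With TPM rescaled without the added sequences, Srebf2 did not pass in either and the shifts were 0.01. Among the listed genes 1 passed, Acaca, the acetyl-CoA carboxylase gene, higher for Egr1 (0.28, adjusted p 0.00984) and for Jun (0.24, adjusted p 0.0171), and 66.6% of its 31-base words occur in no other gene. Of 22 cholesterol synthesis genes 0 passed for either plasmid. Their median log2 fold change was 0.15 for Egr1 and 0.16 for Jun, against -0.003 and -0.006 over all tested genes. Both list medians were above the 0.09 of the Srebf2 plasmid, and those of Prrx1 and Snai1 were -0.07 and -0.04.

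**Figure D4:**
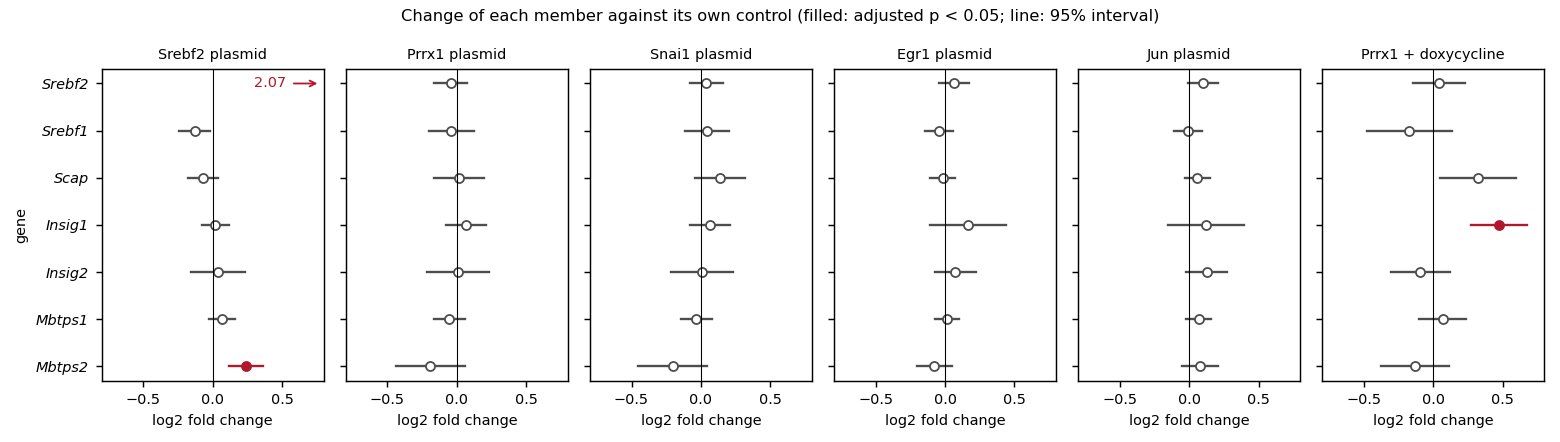
Log2 fold change, with 95% interval, of the 7 genes in each of the 6 comparisons, filled where the adjusted p is below 0.05; the Srebf2 change of 2.07 in Srebf2-transfected cells is off the axis and written out. Apart from it, Mbtps2 in Srebf2-transfected cells and Insig1 in Prrx1-transduced cells with doxycycline are filled.

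Whether these effects differed between experiments was tested in a fit of all 30 libraries. The effect on Insig1 of doxycycline in Prrx1-transduced cells exceeded that of the Prrx1 plasmid by 0.39 on the log2 scale (SE 0.13, adjusted p 0.0399, with 11.5% of 16119 genes called). The effect of the Srebf2 plasmid on Insig1 was below that of doxycycline by -0.42 (SE 0.13, adjusted p 0.0302, 9.76% of genes called). The first difference was called in 4 of 12 fits without 1 library, with adjusted p up to 0.141, and the second in 2 of 12, up to 0.0839. For Mbtps2, the effect of the Srebf2 plasmid exceeded that of doxycycline by 0.41 (adjusted p 0.0478), that of Prrx1 by 0.44 (adjusted p 0.0309, 8.57% of genes called) and that of Snai1 by 0.45 (adjusted p 0.0247, 9.8% of genes called). These were called in 3, 3 and 5 of 12 fits without 1 library, and with TPM rescaled the Mbtps2 differences were 0.25, 0.02 and 0.06 and none passed. The Mbtps2 difference against doxycycline was called in 1 of 7 other settings, and it lost its call also with DESeq2 (adjusted p 0.0624), with the replicate number as a block (0.0709), with at least 5 CPM in 3 libraries (0.0746) and with only the libraries of the 2 experiments (0.115). The block also ended the call against Prrx1 (adjusted p 0.0507). For Scap, the effect of the Srebf2 plasmid was below that of doxycycline by -0.34 (adjusted p 0.0650), which missed the threshold in edgeR but passed in 4 of 7 other settings, among them DESeq2 (-0.37, adjusted p 0.0167) and limma on TPM (-0.68, adjusted p 0.0143). Against Egr1 (0.32, adjusted p 0.348, 0.285% of genes called) and Jun (0.16, adjusted p 0.804, 0.0993% of genes called) the Mbtps2 difference missed the threshold. With only the libraries of the 2 experiments, the difference against Egr1 passed in edgeR (0.32, adjusted p 0.0368). Since few genes passed these 2 contrasts, the misses do not set Egr1 and Jun apart from Prrx1 and Snai1. The contrasts with Prrx1 and Snai1 share control libraries, as do all contrasts of the Srebf2 plasmid.

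Genes most like each member over the 30 libraries were ranked by Pearson's r of log2 CPM after centring on the mean of each experiment, among 10430 other genes above a mean of 5 CPM. The delivered factors Prrx1, Snai1, Egr1, Jun and Srebf2 were left out of these candidates. The libraries of an experiment share their controls and depth, so these are descriptions. For Insig1 they were Ogdhl (0.84), Lss (0.82) and Cyp51 (0.81), of which Lss and Cyp51 encode successive enzymes of sterol synthesis. For Srebf2 they were Gm10241 (0.99), Sap18 (0.83) and Nnt (0.76), an order set mainly by the Srebf2 plasmid. Gm10241 has no 31-base word of its own (0%), so its counts are uncertain. For Scap they were Tmem121 (0.85), Tex261 (0.82) and Rdh10 (0.79), and for Srebf1 Unc119b (0.89), 1110008P14Rik (0.85) and Cda (0.85). Insig2 was most like Fbln5 (0.73), Acta2 (0.73) and Adamts2 (0.72), Mbtps1 most like Bcat1 (0.85), Rab12 (0.81) and Tbc1d2b (0.79), and Mbtps2 most like Mtpn (0.84), Zfp280c (0.83) and S100pbp (0.83). Between members r ran from -0.35 to 0.43, the highest being Mbtps1 with Mbtps2. No member was among the 3 genes most like another, which for Srebf2 was fixed beforehand by leaving it out.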

How the data were processed

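Estimated counts and TPM per transcript were deposited by the authors for 30 libraries, made with kallisto 0.43.0 on mm10, per the submitters' processing notes. The transcript annotation, strand and read layout are not given in the sources used here. Of 118491 targets, 116816 matched a GENCODE M21 transcript, 2 were added sequences (GFP, mScarlet) and 1673 stayed out, with 0.605 to 0.694% of counts. Counts were summed per gene over 36047 genes, rounded to whole numbers and tested per experiment with edgeR 4.0.16 in R 4.3.3: TMM scaling, filterByExpr (minimum count 10, minimum total 15), a robust quasi-likelihood fit and Benjamini-Hochberg adjustment over all tested genes at 0.05. GFP and mScarlet stayed in these counts beside the genes. Where they passed the filter, they entered the library sizes and the numbers of genes tested and called. Differences of effects came from a fit of all 30 libraries. The share of all tested genes below an unadjusted p of 0.05 was not computed, so counts at that p have no background. Intervals are 95% and cover the spread between libraries.

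Deposited TPM were rescaled to 1000000 without GFP and mScarlet, a step chosen after the data were seen. Alternatives were DESeq2 1.42.0, limma 3.58.1 on log2(TPM + 1), + 0.1 and rescaled TPM, other filters, all 30 libraries, the replicate block and each library left out. Some listed genes are counted in their list, with their own values not reported here. The members and lists were chosen with earlier results of these data known. Named were all members, up to 4 called genes per list and comparison with the largest change, and the 3 genes most like each member. The scripts were tested on simulated counts. Words of 31 bases were counted in the GENCODE M21 transcripts listed in the tables.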

Additional observations from a re-analysis of the deposited data

Results flagged for a closer look

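These effects differed between experiments in the fit of all 30 libraries. Srebf2 is the gene its plasmid carries, so the differences for Srebf2 follow from the delivery and serve only as a check of it. The effect on Srebf2 of its own plasmid exceeded that of doxycycline in Prrx1-transduced cells by 2.07 on the log2 scale, that of the Prrx1 plasmid by 2.13, that of Snai1 by 2.04, that of Egr1 by 2.01 and that of Jun by 1.96, and each was called in all 12 fits without 1 library.

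The Insig1 effects differed by -0.42 between the Srebf2 plasmid and doxycycline, and by 0.39 between doxycycline in Prrx1-transduced cells and the Prrx1 plasmid. The Mbtps2 effects differed by 0.41 between the Srebf2 plasmid and doxycycline, by 0.44 between Srebf2 and Prrx1 and by 0.45 between Srebf2 and Snai1. Each of these 5 lost its call in at least 7 of 12 fits without 1 library.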

How the results depend on the processing

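Of 588 recomputed fold changes of single members, 518 kept direction and call, 8 gained a call and 10 lost one; of 798 recomputed differences of effects, 688 kept both, 9 gained a call and 58 lost one. Of the members, the number called for Srebf2 was 1 in place of 2 with all 30 libraries, with limma on TPM + 1 or + 0.1 and on rescaled TPM, when Mbtps2 dropped out. Only the delivered gene was then left. With doxycycline the number was 2 with all 30 libraries and 0 with limma on TPM + 1, + 0.1 and rescaled TPM, in place of 1. Deposited TPM gave 1 in place of 0 for Egr1 and 1 in place of 0 for Jun, with both pseudocounts. Without 1 library, members called ranged from 2 to 2 for Srebf2, 0 to 1 for doxycycline, 0 to 1 for Prrx1, 0 to 2 for Snai1, and 0 to 0 for Egr1 and Jun.

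Differences of effects called among members were 0 for doxycycline against the Prrx1 plasmid with limma on TPM + 1 and on rescaled TPM (otherwise 1), 1 for Srebf2 against Prrx1 and 1 against Snai1 with either (otherwise 2, apart from the replicate block below), and 2 for Srebf2 against Egr1 with only the libraries of those 2 experiments (otherwise 1). Without 1 library they ranged from 0 to 1 for doxycycline against Prrx1, and for Srebf2 from 1 to 3 against doxycycline, 1 to 2 against Prrx1, 1 to 3 against Snai1 and 1 to 1 against Egr1 and Jun. The counts for the Srebf2 plasmid include the delivered Srebf2 gene itself. For Srebf2 against doxycycline, the Insig1 call was lost with limma on TPM + 1 (adjusted p 0.0714) and on rescaled TPM (0.0533), the Mbtps2 call in 6 of 7 settings, and Scap gained one in 4 of 7.

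The sign turned in 52 of the 588 fold changes and 43 of the 798 differences, and in 0 of these was the value called in either fit; values in brackets are those of edgeR as reported. With limma on TPM + 1, on TPM + 0.1 and on rescaled TPM, in that order, fold changes that turned were 0.073, 0.075 and 0.073 for Insig2 with doxycycline (-0.094), 0.22, 0.23 and 0.077 for Mbtps2 under Egr1 (-0.077), 0.051, 0.055 and 0.063 for Mbtps2 under Prrx1 (-0.19), 0.026, 0.030 and 0.023 for Mbtps2 under Snai1 (-0.20), 0.17, 0.17 and 0.023 for Scap under Egr1 (-0.018), 0.15, 0.16 and 0.0088 for Srebf1 under Egr1 (-0.045), 0.17, 0.18 and 0.032 for Srebf1 under Jun (-0.0069) and -0.10, -0.10 and -0.10 for Srebf1 under Snai1 (0.043). With limma on TPM + 1, differences that turned were 0.020 for Insig1 between Srebf2 and Prrx1 (-0.029), 0.036 for Insig1 between Srebf2 and Snai1 (-0.037), -0.12 for Insig2 between Srebf2 and Prrx1 (0.045), -0.17 for Mbtps1 between Srebf2 and Egr1 (0.055), -0.12 for Mbtps1 between Srebf2 and doxycycline (0.039), -0.22 for Mbtps2 between doxycycline and Prrx1 (0.034), -0.10 for Mbtps2 between Srebf2 and Egr1 (0.32), -0.055 for Mbtps2 between Srebf2 and Jun (0.16) and -0.11 for Srebf1 between Srebf2 and doxycycline (0.081). On rescaled TPM the fold change that turned was -0.0047 for Mbtps1 under Srebf2 (0.067). On rescaled TPM, differences that turned were 0.0018 for Insig1 between Srebf2 and Snai1 (-0.037), -0.014 for Insig2 between Srebf2 and doxycycline (0.17), -0.17 for Insig2 between Srebf2 and Prrx1 (0.045), -0.016 for Insig2 between Srebf2 and Snai1 (0.042), -0.064 for Mbtps1 between Srebf2 and Egr1 (0.055), -0.16 for Mbtps1 between Srebf2 and doxycycline (0.039), -0.23 for Mbtps2 between doxycycline and Prrx1 (0.034) and -0.15 for Srebf1 between Srebf2 and doxycycline (0.081). Others that turned were 0.00039 for Mbtps1 between Srebf2 and Jun (-0.0062) with DESeq2, 0.00092 for Mbtps1 between Srebf2 and Jun (-0.0062) and -0.022 for Mbtps1 between Srebf2 and doxycycline (0.039) with only the libraries of the 2 experiments, -0.0071 for Insig2 under Prrx1 (0.0090), -0.0043 for Insig2 under Snai1 (0.0065) and -0.00011 for Scap under Prrx1 (0.016) with all 30 libraries, and -0.0045 for Insig2 under Prrx1 (0.0090) and -0.0040 for Insig2 under Snai1 (0.0065) with no filter. Without 1 library, fold changes that turned ran from -0.00071 to 0.11 for Insig2 under Egr1, -0.073 to 0.14 for Insig2 under Prrx1, -0.019 to 0.021 for Insig2 under Snai1, -0.064 to 0.14 for Insig2 under Srebf2, -0.0097 to 0.038 for Mbtps1 under Egr1, -0.042 to 0.016 for Scap under Egr1, -0.053 to 0.12 for Scap under Prrx1, -0.013 to 0.0042 for Srebf1 under Jun, -0.080 to 0.018 for Srebf1 under Prrx1, -0.0039 to 0.10 for Srebf1 under Snai1 and -0.0066 to 0.12 for Srebf2 with doxycycline. Differences that turned ran from -0.096 to 0.010 for Insig1 between Srebf2 and Prrx1, -0.076 to 0.0024 for Insig1 between Srebf2 and Snai1, -0.13 to 0.075 for Insig2 between Srebf2 and Egr1, -0.19 to 0.016 for Insig2 between Srebf2 and Jun, -0.086 to 0.14 for Insig2 between Srebf2 and Prrx1, -0.060 to 0.14 for Insig2 between Srebf2 and Snai1, -0.026 to 0.021 for Mbtps1 between Srebf2 and Jun, -0.081 to 0.19 for Mbtps2 between doxycycline and Prrx1 and -0.032 to 0.18 for Srebf1 between Srebf2 and doxycycline.

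For Egr1 the number of genes called was 47, and 94 with all 30 libraries, 415 with DESeq2, 1172 and 1277 with limma on TPM + 1 and + 0.1 and 2 on rescaled TPM. For Jun it was 139, and 60, 846, 2203, 2220 and 9 in that order, and 252 with at least 5 CPM in 3 libraries. The share called higher under TPM + 1 was 98.4% for Egr1 (63.8% in edgeR) and 97.8% for Jun (47.5%). With doxycycline it was 844 (55.8% higher), and 2728 with all 30 libraries (34.8% higher), 162 (70.4% higher) and 156 with limma on TPM + 1 and + 0.1, 162 on rescaled TPM and 1326 with no filter. For Prrx1 it was 393 (64.6% higher), 637 with DESeq2 and 597 with no filter, and 50.1% were higher with all 30 libraries. For Snai1 it was 212 (70.3% higher), and 527 with DESeq2, 367, 373 and 337 with limma on TPM + 1, + 0.1 and rescaled TPM and 440 with no filter, and 59.9% were higher with all 30 libraries. For Srebf2 it was 2204 (49.9% higher), and 568 with all 30 libraries, 1019 (66.5% higher) with limma on TPM + 1 and 1019 on + 0.1, and 845 on rescaled TPM. Without 1 library, genes called ranged from 996 (without Srebf2 control replicate 2) to 2329 for Srebf2, 335 (without replicate 2 with doxycycline) to 1250 for doxycycline, 106 to 2639 for Prrx1, 46 to 3062 for Snai1, 10 to 102 for Egr1 and 29 to 94 for Jun; the highest for Prrx1 and Snai1 came without control replicate 1. The causes were not tested.

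Pooled over experiments, deviations of same-numbered libraries correlated at -0.185 to 0.0953 and of others at -0.123 to 0.163. These pooled ranges cannot exclude a pairing within 1 experiment. Same-numbered Prrx1- and Snai1-transfected libraries correlated at 0.0146, 0.0732 and 0.0436, and the others of these groups at -0.072 to 0.0299. Same-numbered Egr1-transfected and control libraries correlated at -0.185, -0.172 and -0.11, and the others at 0.0343 to 0.135. Differently numbered control and Jun-transfected libraries correlated at 0.151 (control 1, Jun 3), 0.157 (control 2, Jun 1) and 0.163 (control 3, Jun 2). All other pairs of these groups were at -0.123 to -0.0455. A block by replicate number does not cover such a match, and its cause was not tested. With the replicate number as a block, genes called were 2295 for Srebf2, 843 for doxycycline, 401 for Prrx1, 290 for Snai1, 23 for Egr1 and 71 for Jun, and members whose effects differed numbered 1 for Srebf2 against Prrx1. Depth limits the transduction libraries most, where members had as few as 229 counts.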
